A study of Beta vulgaris subsp. vulgaris with 30 samples.

Results

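In sugar beet shoots, 42 of 21587 counted genes had a lower median level after 3 days of pretreatment, in water and in ethanol alike. Their medians after a freezing treatment lay within a set window of the unfrozen ones. The genes were selected on group medians of counts per 1000000 reads of a library (CPM), with 1 added to each median. A member had a highest group median of at least 10 CPM, a mean under 2000 CPM over all libraries, a ratio to the state before pretreatment of at most 0.6 after water and after ethanol, and a ratio of frozen to unfrozen between 0.67 and 1.5 after each pretreatment. The comparisons with the state before pretreatment and the freezing comparisons therefore chose the members, and their values are given as a description.

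Messenger RNA was measured by Lasy-Seq, in which many samples are tagged during poly(A)-primed reverse transcription and sequenced together, in 30 libraries of Beta vulgaris subsp. vulgaris shoots, 6 in each of 5 groups. The groups were shoots before pretreatment, shoots after 3 days in water, shoots after 3 days in ethanol, and shoots that had either pretreatment and then freezing temperature. The frozen groups are labelled 2 h, and the labels do not say what that time counts from. The series description gives soil pots with 7-day-old seedlings grown at 22 °C, set with their bases in 80 mM ethanol and then held at -2.1 to -3.5 °C through a night, while the protocols of the individual samples name Arabidopsis, 14-day-old plants, 20 mM ethanol for 6 days and -4.0 °C. The gene identifiers are those of beet, so the series description is followed here. No cultivar or genotype, no seedling number per library and no sampling hour are given in the labels, and no group was kept without pretreatment to the later age. In any comparison with the early state, pretreatment, seedling age and sampling hour cannot be told apart, and neither can freezing and sampling hour.

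A young beet shoot is made at first of the cotyledons, which open and green in the light, and then of the first leaves that grow from the apex between them. Transcripts that serve germination and cotyledon opening commonly decline as leaves form. Ethanol given to roots has been used to raise the tolerance of plants to heat, drought and salt, and temperatures below zero commonly induce cold-responsive genes under the control of CBF transcription factors. In shoots sampled whole, fewer cells of a type and less RNA per cell cannot be told apart. None of the 42 genes carries a symbol beyond a locus number in the annotation used here, and no product description was used, so their roles are not given.

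Total counts ran from 3379082, in ethanol replicate 4, to 17868082. All 42 members passed the low-count filter, as did 14128 genes in all. Levels below are CPM of the library total, as the rule uses them. Changes are on the log2 scale, each with its standard error (after ±), from an edgeR fit scaled by TMM factors, which align libraries on the bulk of their genes. The 2 scalings differed. Among the 6256 genes that met the level criteria, the median freezing ratio on the log2 scale was 0.21 after water and 0.21 after ethanol in plain CPM, and 0.04 and 0.05 with TMM scaling. The median ratio to the state before pretreatment was 0.09 after water and 0.11 after ethanol in plain CPM.

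Genes that met the limits on the fall took several courses in freezing. Of 120 such genes, 42 (35.0%) lay inside the freezing window after both pretreatments and 40 (33.3%) lay at or above it after both. Another 8 lay at or below it after both, and the remaining 30 left it after at least 1 pretreatment in other combinations. No test bears on these counts, since the ratios defined them.

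**Figure D1:**
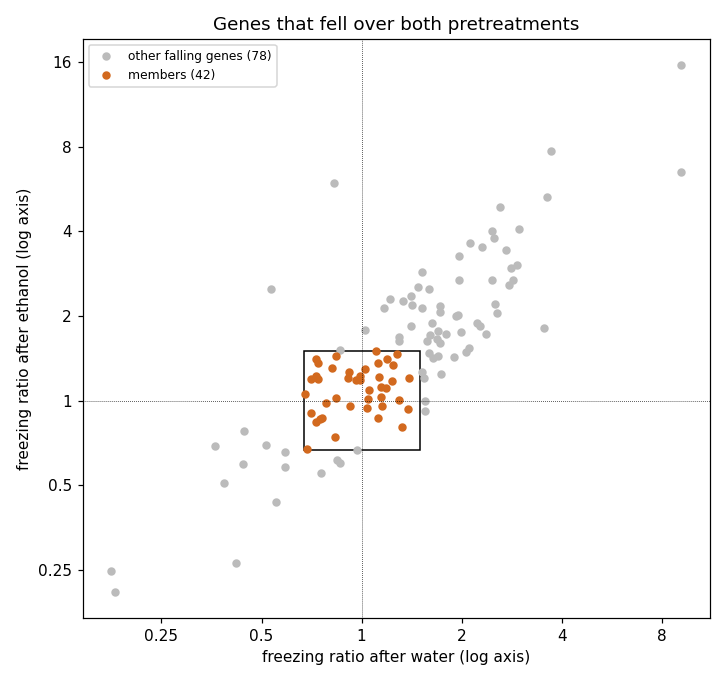
Freezing ratio after water (horizontal, log axis) and after ethanol (vertical, log axis) of the 120 genes that fell over both pretreatments, each a point, with the 42 members in colour inside the window of 0.67 to 1.5. Of the 78 others, 40 lie at or above the window on both axes and 8 at or below it on both.

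The median log2 change of the members was -1.09 after water and -1.19 after ethanol, against medians of -0.01 and -0.01 over the 14128 genes tested, and all 42 changes were below 0 in both. The changes ran from -7.03, in Bevul.7G088300, to -0.59 after water and from -4.57 to -0.31 after ethanol. These falls share the libraries taken before pretreatment. In edgeR's quasi-likelihood test 25 members were lower after water and 26 after ethanol at an adjusted p under 0.05, where 1.46% and 2.05% of all genes tested were called lower, and since the rule used these contrasts nothing is read from that excess. All 6 early libraries lay above all water libraries in 13 members and above all ethanol libraries in 15, as they did in 0.934% and 0.885% of the genes tested. The median over the members, relative to their mean before pretreatment on the log2 scale, lay between -0.14 and 0.20 in the libraries before pretreatment. It lay between -1.50 and -1.05 after water, -1.52 and -1.08 after ethanol, -1.72 and -1.17 after water and freezing, and -1.77 and -1.11 after ethanol and freezing.

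**Figure D2:**
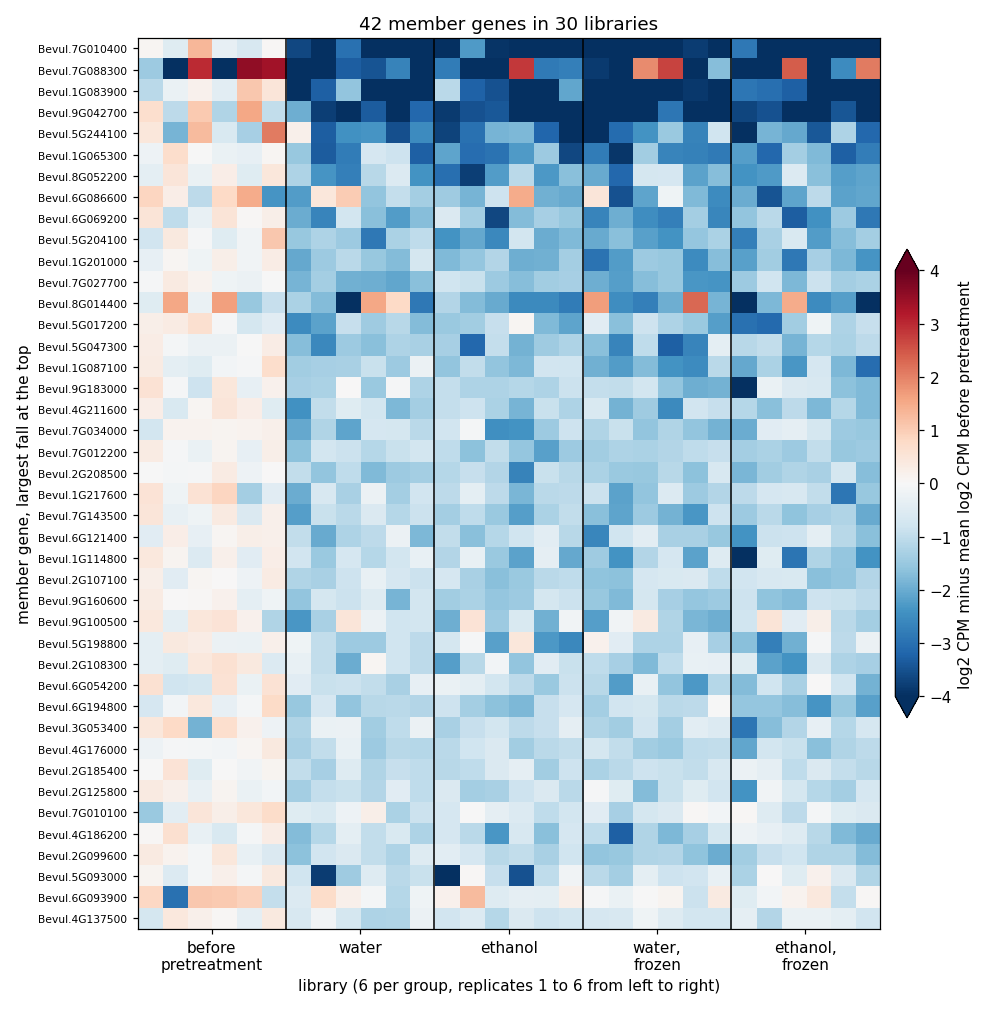
Log2 CPM with TMM scaling of the 42 members (rows, largest fall at the top) in the 30 libraries (columns, 6 per group), relative to each gene's mean before pretreatment. Most rows turn blue after pretreatment and stay so after freezing. Rows that vary widely within groups include Bevul.7G088300, Bevul.8G014400, Bevul.6G086600, Bevul.5G244100 and Bevul.6G093900. In Bevul.6G093900 several later libraries lie above its mean before pretreatment.

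Of the members, 5 had fitted falls of at least 4-fold after both pretreatments, and 22 had falls of at least 2-fold after both. The 5 include Bevul.7G088300, at -7.03 ± 1.95 after water and -2.21 ± 1.46 after ethanol, which had no common course within groups (below). The deepest fall by the rule was that of Bevul.7G010400 (LOC104898204; chromosome 7, 1423924 to 1426875 of assembly EL10.2, plus strand). Its level ran from 19.7 to 74.9 CPM with a median of 25.9 before pretreatment. After water it ran from 0 to 3.64 CPM with a median of 0.937, and after ethanol from 0 to 6.29 with a median of 0.614. The frozen libraries stayed as low, at 0 to 2.48 CPM after water and 0 to 4.80 after ethanol. Its freezing ratios, 0.727 after water and 1.22 after ethanol, rest on medians under 1 CPM, to which 1 was added. Without that addition both would lie outside the window. None of the 24 later libraries reached the lowest of the 6 before pretreatment, and the gene had no read in 7 of them. Its log2 change was -4.79 ± 0.93 after water and -4.41 ± 0.91 after ethanol. Without the 1 added to medians, Bevul.9G042700 and Bevul.7G088300 would also leave the window after water. Bevul.5G244100, Bevul.5G093000, Bevul.5G204100 and Bevul.1G087100 would leave it after ethanol.

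Bevul.9G042700 (LOC104902897; chromosome 9, 8942484 to 8952958, minus strand) had a like course from a more scattered start. Before pretreatment 3 libraries held 37.8 to 79.1 CPM and the other 3 held 11.1 to 12.4 CPM. After water it ran from 0.0699 to 6.52 CPM with a median of 2.25, and after ethanol from 0.506 to 2.46 with a median of 1.55. No later library exceeded 6.52 CPM, so the groups did not overlap. The log2 changes were -3.80 ± 0.68 and -4.57 ± 0.72. With freezing the fitted changes were -1.07 ± 0.68 after water and 0.07 ± 0.68 after ethanol. With TMM scaling the freezing ratio after water was 0.661, below the window.

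Bevul.1G083900 (LOC104905908; chromosome 1, 41532283 to 41535017, plus strand) ran from 21.0 to 108.3 CPM with a median of 48.0 before pretreatment. It ran from 1.61 to 16.6 CPM with a median of 2.48 after water and from 0 to 26.4 with a median of 4.87 after ethanol. After freezing it held 1.66 to 4.16 CPM in the water group and 1.27 to 7.88 in the ethanol group. Of the 24 later libraries, 23 lay below all 6 early ones, and the exception was ethanol replicate 1. Its log2 changes were -3.56 ± 0.63 after water and -2.83 ± 0.60 after ethanol. The fitted freezing change, which follows means, stood at -1.02 ± 0.62 after water, while the ratio of medians was 1.05, with water replicate 3 high at 16.6 CPM before freezing.

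Both genes next to Bevul.1G083900 were also lower after pretreatment, which was noticed in the data and concerns genes outside the 42. Bevul.1G083800 (chromosome 1, 41493441 to 41495457) and Bevul.1G084000 (chromosome 1, 41546733 to 41549352) lie on the same plus strand, 36825 bp before it and 11715 bp after it. Bevul.1G083800 held 165.0 ± 27.2 CPM before pretreatment, 28.0 ± 15.5 after water and 42.7 ± 39.0 after ethanol (SD, n = 6). Bevul.1G084000 held 57.6 ± 16.1, 4.91 ± 1.97 and 15.4 ± 15.7 CPM. In edgeR's quasi-likelihood test the log2 changes after water were -2.66 ± 0.42 and -3.64 ± 0.50, with adjusted p values of 7.0e-05 and 9.37e-06, and those after ethanol were -2.08 ± 0.41 and -2.05 ± 0.47, with adjusted p values of 0.00165 and 0.00721. They are no members because the freezing ratio was 0.599 after ethanol for the first and 1.55 after water for the second.

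Ethanol replicate 1 was the highest ethanol library for each of the 3 genes, at 115.7, 26.4 and 45.2 CPM in order of position. With group means removed, Pearson's r over 30 libraries was 0.56 for Bevul.1G083800 with the member, 0.69 for it with Bevul.1G084000, and 0.40 for the member with Bevul.1G084000. Without ethanol replicate 1, left out after the data were seen, these were 0.44, 0.59 and 0.24 over 29 libraries. These r values describe genes that share the TMM-scaled total of each library as a divisor, and reads shared between alike copies were not examined. No other member had a directly neighbouring gene within the limits on the fall. Of the 84 genes that flank a member, 58 were tested, and 3 of these were called lower after water and 5 after ethanol by edgeR (5.17% and 8.62%, against 1.46% and 2.05% of all genes tested). Besides the pair on chromosome 1, these were both neighbours of Bevul.2G108300 and 1 of Bevul.7G010400. Bevul.2G108400 had log2 changes of -0.61 after water (adjusted p = 0.0141 by edgeR) and -0.92 after ethanol (adjusted p = 0.000141). Bevul.2G108200 had -0.31 (adjusted p = 0.156) and -0.40 (adjusted p = 0.0395 by edgeR). Bevul.7G010500, below the level criteria, had adjusted p values of 0.00667 after ethanol and 0.324 after water by edgeR. Bevul.6G069300, next to Bevul.6G069200, was higher, by 0.84 after water and 0.82 after ethanol (adjusted p = 0.012 and 0.014 by edgeR).

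Bevul.5G244100 (chromosome 5, 65713821 to 65716796, plus strand) ran from 3.15 to 50.8 CPM with a median of 11.9 before pretreatment, 0.979 to 14.4 with a median of 2.19 after water, and 0.253 to 3.85 with a median of 1.40 after ethanol. Its groups overlapped, through water replicate 1 at 14.4 CPM and early libraries as low as 3.15. It lies 13801 bp beyond Bevul.5G244000, but with group means removed its r was -0.14 with Bevul.5G243900 and -0.13 with Bevul.5G244000, a pair that had an r of 0.97 with each other. Its freezing ratio after ethanol, 1.499, was the highest of any member and lay just inside the window. That ratio rests on medians of 1.40 CPM unfrozen and 2.59 frozen, to which 1 was added.

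Bevul.7G088300 (chromosome 7, 24845320 to 24846141, plus strand) met the rule through its medians and not through a common course. Before pretreatment 3 libraries held 26.0, 31.9 and 39.6 CPM, and the other 3 held 0, 0 and 0.917. No water library exceeded 0.350 CPM. Ethanol replicate 4 held 25.7 CPM, from 87 reads in the shallowest library, and the other ethanol libraries at most 0.331. Among frozen libraries, water replicates 3 and 4 held 15.0 and 24.9 CPM and ethanol replicates 3 and 6 held 22.1 and 16.6, with at most 0.891 in the other 8. The gene was thus high in 3, 0, 1, 2 and 2 of 6 libraries in the 5 groups, and its median of 13.4 CPM before pretreatment fell between high and low libraries.

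Bevul.8G014400 (LOC104900575; chromosome 8, 1924854 to 1928940, minus strand) also varied widely within groups. Before pretreatment it ran from 50.4 to 430.8 CPM. The water group ran from 4.27 to 465.5 CPM unfrozen and 25.9 to 864.6 frozen, and the ethanol group from 19.6 to 69.3 unfrozen and 1.71 to 498.6 frozen. The medians were 103.4 CPM before pretreatment, 49.1 and 41.0 in the water groups, and 30.8 and 31.6 in the ethanol groups, and all 5 ranges overlapped. Its log2 change was -0.61 ± 0.92 after water and -2.52 ± 0.98 after ethanol. Bevul.6G086600 (LOC104895880; chromosome 6, 14905005 to 14907530) ran from 2.03 to 34.4 CPM before pretreatment and from 2.78 to 36.1 after ethanol, the highest value being that of ethanol replicate 4.

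**Figure D3:**
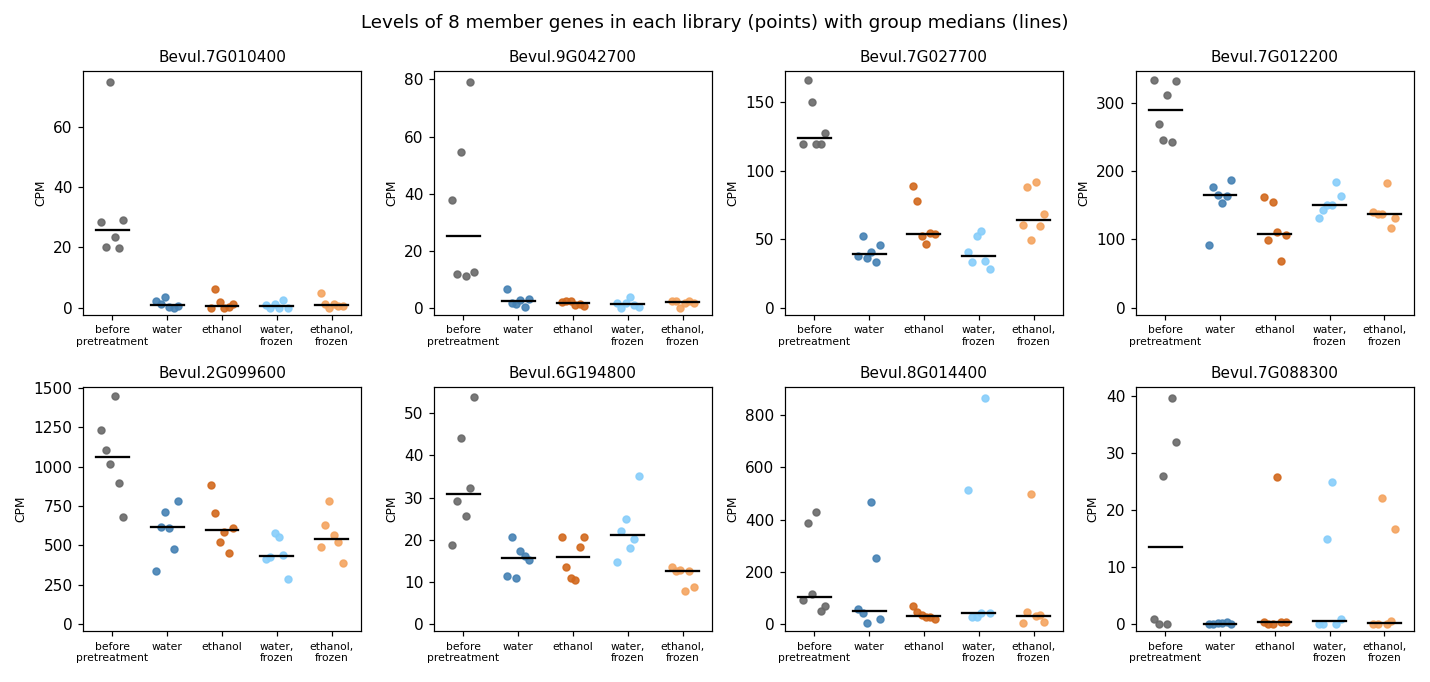
CPM (vertical, linear from 0) of 8 members in each library by group, with a line at each group median. Bevul.7G010400, Bevul.9G042700, Bevul.7G027700 and Bevul.7G012200 lie higher in all 6 early libraries than in any later one, whereas Bevul.8G014400 and Bevul.7G088300 hold from 1 to 3 libraries far above the others in several groups.

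In 8 members all 6 early libraries lay above all 24 later ones, as they did in 0.17% of the genes tested. Besides Bevul.7G010400 and Bevul.9G042700 these were Bevul.1G065300, Bevul.1G201000, Bevul.2G208500, Bevul.5G047300, Bevul.7G012200 and Bevul.7G027700. The rule used these groups, so the count describes how tight the fall was. Bevul.7G012200 (LOC104898222; chromosome 7, 1765922 to 1767986, plus strand) ran from 242.1 to 333.4 CPM before pretreatment with a median of 289.5. It ran from 92.4 to 187.1 with a median of 164.2 after water and from 68.4 to 161.8 with a median of 108.1 after ethanol. After freezing its medians were 150.7 and 136.7 CPM, and no later library passed 187.1.

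Bevul.1G201000 (LOC104901408; chromosome 1, 62197426 to 62210887, plus strand), which has 7 transcripts in RefSeq, ran from 79.0 to 129.7 CPM before pretreatment with a median of 107.4. Its medians were 41.8 after water, 37.7 after ethanol, 31.2 after water and freezing and 32.2 after ethanol and freezing, with 70.7 CPM the highest later value. Bevul.1G065300 (LOC104897914; chromosome 1, 32860683 to 32863685, minus strand) ran from 23.0 to 45.5 CPM before pretreatment and had later medians of 7.11, 5.13, 5.00 and 6.31 in the same order. Its highest later value was 20.8 CPM, in water replicate 4, so the ranges were apart by 2.21 CPM. Bevul.2G208500 (LOC104906430; chromosome 2, 52295881 to 52298390, minus strand), whose span overlaps that of a neighbouring gene, ran from 77.4 to 106.3 CPM before pretreatment with a median of 80.5, and its later medians lay between 34.5 and 41.6. Its highest later library held 58.8 CPM. Bevul.5G047300 (LOC104892457; chromosome 5, 6823670 to 6828990, plus strand) ran from 9.50 to 13.5 CPM before pretreatment, and its highest later library, at 9.17 CPM after water and freezing, lay just below that range.

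The member with the highest level was Bevul.2G099600 (LOC125494956; chromosome 2, 29478231 to 29481934, minus strand). It ran from 678 to 1449 CPM before pretreatment with a median of 1063, and from 339.6 to 784 after water with a median of 614. After ethanol it ran from 454 to 884 CPM with a median of 598. Its lowest early library lay within the range of both pretreated groups. Bevul.4G176000 (LOC104890612; chromosome 4, 56026573 to 56029965, minus strand) ran from 171.9 to 270.8 CPM before pretreatment and had medians of 204.6 there, 106.5 after water and 113.2 after ethanol, with only water replicate 3, at 180.1, reaching the early range. Bevul.2G108300 (LOC104886914; chromosome 2, 32976996 to 32978715) ran from 208.1 to 490.0 CPM before pretreatment, 81.8 to 391.3 after water and 78.8 to 311.1 after ethanol, so that its groups overlapped widely.

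Bevul.8G052200 (LOC104901033; chromosome 8, 9622676 to 9623041, minus strand) was among the highest and among the deepest. It ran from 83.3 to 160.5 CPM before pretreatment with a median of 121.7, from 18.2 to 86.7 after water with a median of 37.6, and from 9.18 to 62.1 after ethanol with a median of 26.4. The counted span of 366 bp covers 53.0% of the RefSeq model, which reaches 219 bp further at the 3′ end, and reads beyond the span are not in its count. Bevul.7G143500 (LOC104908544; chromosome 7, 47584568 to 47585125), whose span covers 51.2% of its model, had medians of 142.5 CPM before pretreatment, 73.4 after water and 63.3 after ethanol. Bevul.9G183000 (chromosome 9, 49638373 to 49646552) had medians of 135.7, 58.3 and 63.8 CPM, and single water libraries up to 137.9.

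Also among the 10 largest falls, from low early levels, were those of Bevul.6G069200 and Bevul.5G204100. Bevul.6G069200 (LOC104895677; chromosome 6, 10710529 to 10715993) had medians of 11.3 CPM before pretreatment, 2.86 after water and 3.79 after ethanol, and Bevul.5G204100 (LOC104894188; chromosome 5, 60172473 to 60175197) had 16.9, 6.89 and 4.48 CPM. Nearest to the limit on the fall, with larger ratios of 0.593, 0.593 and 0.585, were Bevul.4G137500, Bevul.9G160600 and Bevul.3G053400. Just outside it lay Bevul.5G158900, Bevul.7G064000 and Bevul.4G075100, at 0.606, 0.607 and 0.609. The naming rule left out 20 members, and 18 of them, all but Bevul.1G087100 and Bevul.6G194800, had early medians of 10.17 to 82.8 CPM. Their fitted log2 changes lay between -1.65 and -0.59 after water, between -1.56 and -0.31 after ethanol, and between -0.66 and 0.47 with freezing.

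The freezing ratios lay inside the window by construction, but the estimates do not show that single members stayed still. The median fitted log2 change with freezing was -0.19 after water, with 30 of 42 below 0, and -0.05 after ethanol, with 22 of 42 below 0, against 0.08 and 0.09 over all genes tested. The median standard error was 0.34 in both, and the 95% interval lay within a 1.5-fold change either way for 8 members after water and 7 after ethanol. With plain CPM the median log2 ratio of the members was -0.02 after water and 0.20 after ethanol.

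In edgeR's quasi-likelihood test 2 members were lower in frozen than in unfrozen shoots after water and none was higher, where 6.09% of all genes tested were called lower and 5.02% higher. At an unadjusted p under 0.05 there were 5 members, 4 lower and 1 higher, against 21.5% of all genes. The higher one was Bevul.7G088300, at 5.5 ± 1.9 on the log2 scale, which was high in some frozen libraries and in no unfrozen water one. DESeq2 called the same 2 members as edgeR at an adjusted p under 0.05. After ethanol neither tool called a member, where edgeR called 12.3% of all genes, and 2 members had an unadjusted p under 0.05, against 22.7%. The rule used these contrasts, so nothing is read from the shares or the calls, and the values of the 2 members are given as a description. Bevul.1G087100 (LOC104894452; chromosome 1, 43050616 to 43051119, minus strand) ran from 31.5 to 75.1 CPM after water and from 18.1 to 41.6 after water and freezing, a log2 change of -0.88 ± 0.30 (adjusted p = 0.0495 by edgeR). Bevul.2G099600 ran from 283 to 580 CPM after water and freezing, a log2 change of -0.58 ± 0.19 (adjusted p = 0.0358 by edgeR). Both had freezing ratios after water inside the window in plain CPM and below it, at 0.596 and 0.626, with TMM scaling.

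Whether the fall went equally far in water and in ethanol was not a ratio of the rule, although holding both below 1 limit partly sets how close they are. Between unfrozen shoots no member was called higher or lower by edgeR's quasi-likelihood test, where 0.00708% of all genes tested were, and none by DESeq2. An unadjusted p under 0.05 was reached by 3 members and by 3.95% of all genes. The median log2 difference of the members was -0.05, with 20 above 0 and 22 below, against 0.00 over all genes. The median standard error was 0.34, and the 95% interval of the difference lay within 2-fold either way for 25 of the 42 and within 1.5-fold for 7.

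Between frozen shoots no member was called by edgeR either, where 0.106% of all genes tested were, and DESeq2 called 1 higher. An unadjusted p under 0.05 was reached by 2 members and by 3.53% of all genes. The median log2 difference was 0.07, with 24 above 0 and 18 below, against 0.01 over all genes. The rule held both freezing ratios of a member inside 1 window, which limited how far its 2 freezing responses could differ before any test. The difference between them called no gene by edgeR (0%) or by DESeq2. It had 2 members at an unadjusted p under 0.05, against 2.87% of all genes, and a median over the members of 0.18, against 0.00.

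The member with the lowest unadjusted p in both ethanol comparisons was Bevul.7G027700 (chromosome 7, 4269514 to 4270743, minus strand), singled out after its values were seen. Before pretreatment it ran from 119.5 to 166.1 CPM with a median of 123.6. After water it ran from 33.4 to 52.2 CPM with a median of 38.9, and after ethanol from 46.2 to 88.6 with a median of 54.0. After water and freezing it ran from 28.4 to 55.6 CPM with a median of 37.5, and after ethanol and freezing from 49.4 to 92.0 with a median of 64.3. The ethanol medians were above the water medians, with overlapping ranges in each comparison. The estimate for ethanol against water was 0.57 ± 0.18 on the log2 scale in unfrozen shoots (unadjusted p = 0.0033, adjusted p = 0.933) and 0.76 ± 0.18 in frozen ones (unadjusted p = 0.000174, adjusted p = 0.123), both by edgeR's quasi-likelihood test. These 2 differences come from separate libraries, but they are not independent. The rule held each frozen median within a window of its unfrozen one, so the sign was partly carried over by the selection. DESeq2 gave an adjusted p of 0.0393 in frozen shoots, and edgeR one of 0.0407 without frozen water replicate 4, within a range of 0.0393 to 0.439 over the alternatives.

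Bevul.6G194800 (chromosome 6, 64206927 to 64207566, minus strand) had the opposite sign in frozen shoots. It ran from 14.8 to 35.0 CPM with a median of 21.1 after water and freezing and from 7.81 to 13.6 with a median of 12.6 after ethanol and freezing, and the ranges did not meet, as in 0.142% of the genes tested. Before freezing it ran from 10.9 to 20.6 CPM after water and 10.4 to 20.7 after ethanol, and before pretreatment from 18.8 to 53.9. The frozen difference was -1.01 ± 0.25 on the log2 scale (unadjusted p = 0.000272, adjusted p = 0.16 by edgeR), and the difference between the freezing responses was -1.04 ± 0.35 (unadjusted p = 0.00554, adjusted p = 1.00 by edgeR). Bevul.7G012200 had an estimate for ethanol against water of -0.46 ± 0.17 in unfrozen shoots (unadjusted p = 0.00962, adjusted p = 1.00 by edgeR) and of -0.16 ± 0.17 in frozen ones. The other member under 0.05 in unfrozen shoots was Bevul.7G088300, where ethanol replicate 4 alone was high.

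**Figure D4:**
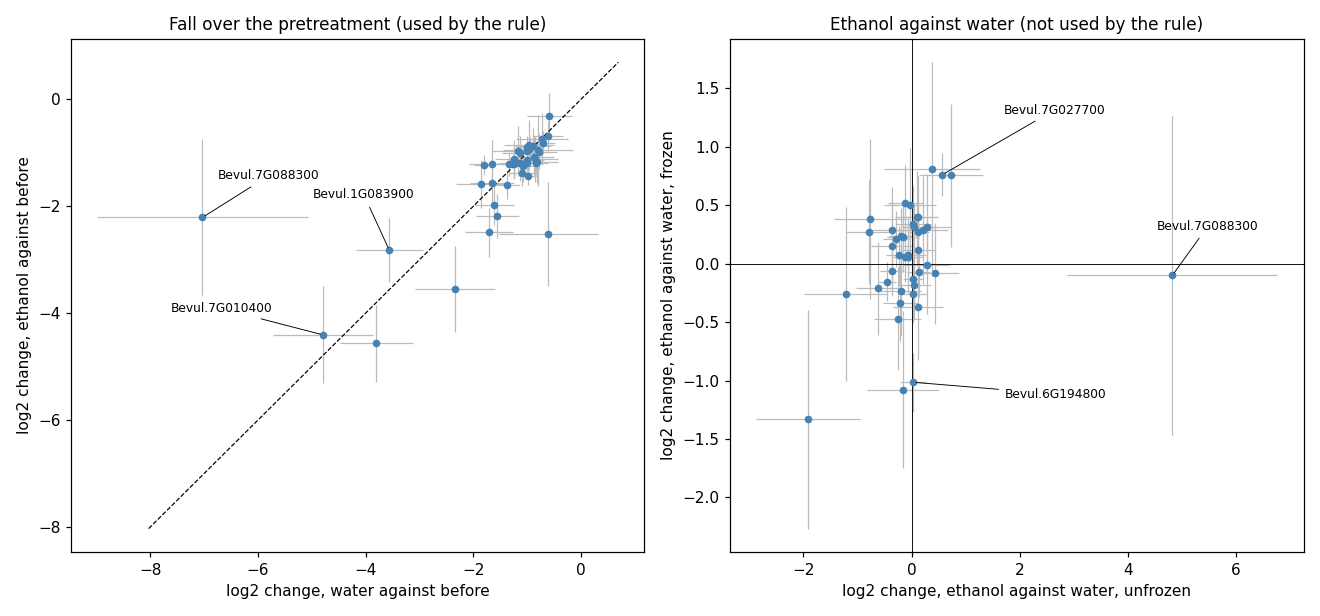
Fitted log2 changes of the 42 members with standard errors, for the falls after water (horizontal) and ethanol (vertical) on the left, with a dashed line of equality, and for ethanol against water in unfrozen (horizontal) and frozen (vertical) shoots on the right. On the left Bevul.7G088300 lies far from the line of equality, and on the right Bevul.7G027700 lies above 0 on both axes, at 0.57 and 0.76.

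The members lay on all 9 chromosomes, with 7 on chromosome 7 and 1 on chromosome 3, where 11.4% and 9.38% of the 6256 genes that met the level criteria lie. No 2 members were direct neighbours, the closest being Bevul.7G010100 and Bevul.7G010400, 3 gene positions and 69152 bp apart. Their gene spans ran from 246 to 13462 bp with a median of 2518, against 4342 over the genes that met the level criteria, and 21.4% were under 1000 bp, against 10.1%. The other 78 falling genes had a median span of 2684 bp, with 19.2% under 1000 bp. A RefSeq model matched 34 members (81.0%, against 88.6%), of which 33 were protein coding and 1, Bevul.6G093900, was a pseudogene. For 5 members, including Bevul.7G088300, Bevul.5G244100 and Bevul.6G194800, no RefSeq gene overlapped the span at all. The models of 17 matched members reached at least 100 bp further at the 3′ end than the counted span.

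With group means removed, Pearson's r over 30 libraries had a median of 0.05 over the 861 pairs of members, against 0.00 over all pairs of the genes that met the level criteria, and reached 0.5 in 17 pairs (1.97%, against 1.08%). The highest were 0.67 for Bevul.1G087100 with Bevul.7G143500, 0.64 for Bevul.2G125800 with Bevul.9G183000, and 0.64 for Bevul.8G052200 with Bevul.1G065300. The median coefficient of variation before pretreatment was 29.6% for the members and 27.4% for the genes that met the level criteria.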

How the data were processed

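The submitters' processing notes list bcl2fastq, Trimmomatic, HISAT2, featureCounts and DESeq2, without versions, and the build TAIR10. Chromosome names are those of beet assembly EL10.2, per the file headers. The deposited table holds read counts per gene for 30 libraries, with 3379082 to 17868082 reads each. Strand use in counting was not stated, and Bevul.2G208500 overlaps a neighbour. No label says that replicates were separate cultures, so p-values cover the spread between these samples, which may be technical. A second table of counts scaled by size factors was not used here.

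Members, lists and the naming rule were chosen with earlier results of these data known. The rule named the 10 members with the highest median before pretreatment, the 10 with the largest mean log2 fall, those past the threshold in ethanol against water, those next to each other, those with a symbol, and the 3 genes nearest inside and outside the limit on the fall. Bevul.1G087100, Bevul.6G194800 and others outside it were named after their values were seen. Counts were fitted in R 4.3.3 with edgeR 4.0.16 (filterByExpr, TMM, quasi-likelihood, 5 group means, no covariate, two-sided, Benjamini-Hochberg over 14128 genes, threshold 0.05). A standard error is the size of the log2 change over the square root of F, and a 95% interval spans 1.96 of them each way. Log2 CPM, used for the r values and the median over the members in each library, was scaled by TMM factors with a prior count of 2. The fit was also run on simulated counts, with changes set in the unfrozen ethanol group and read only against unfrozen water. That run does not bear on the other contrasts. Genes were matched to RefSeq models of EL10.2 by position, each covering at least 0.5 of the other. Alternatives were no low-count filter, scaling by relative log expression, a replicate block, only the compared groups, DESeq2 1.42.0, leaving out each library, and other settings of the membership rule.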

Additional observations from a re-analysis of the deposited data

Results flagged for a closer look

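In 17 groups of 6 libraries, of those examined for 22 named members and the median of all members in each of the 5 groups, a single library stood far from the other 5. Chance flags about 1 in 20 such groups where values are normally spread. CPM near 0 need not be, so nothing is read from the number of flags. Ethanol replicate 4, the shallowest library, was the highest for Bevul.7G088300 (25.7 CPM, next 0.331), Bevul.6G086600 (36.1, next 6.90) and Bevul.5G204100 (11.5, next 5.06). Frozen ethanol replicate 3 was the highest for Bevul.8G014400 (498.6 CPM, next 45.0) and Bevul.8G052200 (105.5, next 46.9), and held no read of Bevul.9G042700 (0 CPM, next 1.63). Frozen water replicate 3 was the highest for Bevul.1G065300 (13.9 CPM, next 5.49) and Bevul.9G160600 (21.6, next 13.1). Water replicate 3 was the highest for Bevul.4G176000 (180.1 CPM, next 110.8) and Bevul.1G083900 (16.6, next 4.96), and water replicate 1 was the highest for Bevul.5G244100 (14.4, next 2.63) and the lowest for Bevul.7G012200 (92.4, next 153.6). Bevul.7G012200 was also high in frozen ethanol replicate 4 (183.0 CPM, next 139.9). Bevul.7G010400 stood out in replicate 3 before pretreatment (74.9 CPM, next 29.1), ethanol replicate 2 (6.29, next 1.87) and frozen ethanol replicate 1 (4.80, next 1.37), and Bevul.1G065300 in replicate 2 before pretreatment (45.5, next 29.6). The cause was not tested.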

How the results depend on the processing

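The number of members depended on the rule. It was 42 as reported, 64 with TMM-scaled CPM (34 of the 42 among them), 20 with a limit on the fall of 0.5, 71 with 0.67, and 16 with a freezing window narrowed to start at 0.8 and end at its inverse. Group means gave 34 members, 22 of them shared, and no addition of 1 gave 38, 35 shared. The 8 members lost under TMM scaling each had a freezing ratio after water under 0.67 there. They were Bevul.1G087100, Bevul.2G099600, Bevul.6G086600, Bevul.9G160600, Bevul.9G100500, Bevul.7G143500, Bevul.1G065300 and Bevul.9G042700. Leaving out 1 library gave 33 to 49 members, and 10 of the 42 were kept in all 30 such repeats. No member was called between ethanol and water, or in the difference of freezing responses, under the alternatives run, except Bevul.7G027700, which made 1 higher call in frozen shoots by DESeq2 and 1 without frozen water replicate 4. Leaving out single libraries gave 0 to 1 higher calls there and moved the median log2 difference of the members between 0.01 and 0.21, and in unfrozen shoots between -0.16 and 0.01. Over all genes, ethanol against water in unfrozen shoots gave 0 higher and 1 lower as reported, 2 and 3 with only the compared groups, and 3 and 5 by DESeq2. In frozen shoots it gave 3 higher and 12 lower as reported, 3 and 4 with only the compared groups, and 8 and 17 by DESeq2. Same-numbered libraries showed no clear pairing in r, which cannot show that they shared no pot or batch. Between ethanol and water r ran from -0.06 to 0.08, and 1 of 6 correlated best with its own number in unfrozen and in frozen shoots. Between unfrozen and frozen shoots r ran from -0.06 to 0.04 after water and -0.03 to 0.10 after ethanol, with 2 of 6 best in each. With the replicate block the members' medians were -0.02 unfrozen and 0.10 frozen, the difference of freezing responses had a median of 0.16, and no member was called. Depth limits the lowest levels: in ethanol replicate 4, Bevul.9G042700 at 0.888 CPM rests on 3 reads.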
